A study of Mus musculus with 10 samples.

Results

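The genes of the cytosolic ribosome were described in pancreatic islets of mice on a western diet and on standard chow. A gene was taken when the deposited table listed it as protein coding and its symbol began with Rpl or Rps followed by a digit, or was Rplp0, Rplp1, Rplp2 or Rpsa. Symbols beginning with Rps6k, which are kinases, and symbols containing "-ps", which mark copies named as pseudogenes, were left out. This gave 84 of the 27665 genes in the table. Of these, 31 encode proteins of the small subunit, 43 proteins of the large subunit and 3 proteins of the acidic P stalk. The other 7 are Rpl3l, Rpl7l1, Rpl22l1, Rpl36al, Rps27l and Rps27rt, which resemble core genes, and Rps19bp1, which encodes a binding partner of RPS19 and is no ribosomal protein. For brevity, all 84 are called ribosomal protein genes below.

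RNA sequencing was done on islets, the endocrine cell clusters of the pancreas, which hold mostly insulin-producing beta cells. The western diet group held 5 mice, 4 from cage 4 and 1 from cage 2, and the standard chow group held 5 mice from cage 3. All 10 were male C57BL/6J mice, an inbred strain, aged 8 to 10 weeks, on their diet for 4 weeks, with no transgene or drug named in the labels, which give 1 library per mouse. No cage held both diets, so diet and cage cannot be told apart. In bulk islet RNA, a change in the share of a cell type and a change in RNA per cell cannot be told apart.

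A cytosolic ribosome joins a small subunit, which reads the mRNA, to a large subunit, which forms the peptide bonds. Each protein is needed in a fixed ratio to the others, and free surplus is degraded. Their mRNAs are short and abundant, and many begin with a C followed by a run of pyrimidines, the terminal oligopyrimidine (TOP) tract, through which the kinase complex mTORC1 and the RNA-binding protein LARP1 set their translation and stability.

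The annotated start sites show this tract in some of the genes the results turn on and not in others. RefSeq promoters on GRCm38.p6 were at hand for 64 of the 84 genes. A tract was counted when the annotated start base was a C followed by at least 4 bases that were each C or T, read on the transcribed strand alone. It was present in 14 of 64 genes (21.9%), against 813 of 27025 genes with a promoter in the same table (3.01%). When the tract could begin within 15 bases of the start on either side, it was found in 43 of 64 genes (67.2%), against 42.5% of all genes with a promoter. A gene with several annotated starts was counted when any of them matched. A match is a description of these letters. The starts used in islets were not measured, so a gene without a match at its annotated start may still carry the tract. Windows of 30 bases, 15 before the start and 15 from it, are given 5′ to 3′ with the tract in capitals. The first 4 belong to genes that rose on western diet and have the tract, the next 2 have the tract and were not called, the following 2 rose and have no tract at the start, and the last belongs to the only tested gene with a fold change below 0. Rps21 lies at chr2:180257364-180257393 on the plus strand, Rps27 at chr3:90213634-90213663 on the minus strand, Rpl28 at chr7:4792950-4792979 on the plus strand and Rpl14 at chr9:120571502-120571531 on the plus strand. Rpl35a lies at chr16:33056467-33056496 on the plus strand and Rpl15 at chr14:18270972-18271001 on the minus strand. Rps21 and Rpl35a also have annotated starts without the tract, which are not printed. Rps19bp1 lies at chr15:80264292-80264321 on the minus strand, Rpl7l1 at chr17:46782642-46782671 on the minus strand and Rpl22l1 at chr3:28805493-28805522 on the plus strand.
Rps21: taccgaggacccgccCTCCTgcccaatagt
Rps27: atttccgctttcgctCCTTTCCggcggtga
Rpl28: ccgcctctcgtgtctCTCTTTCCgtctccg
Rpl14: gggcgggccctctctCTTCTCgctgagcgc
Rpl35a: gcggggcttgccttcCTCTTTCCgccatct
Rpl15: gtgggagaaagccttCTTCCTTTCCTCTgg
Rps19bp1: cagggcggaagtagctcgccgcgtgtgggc
Rpl7l1: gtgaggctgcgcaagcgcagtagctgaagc
Rpl22l1: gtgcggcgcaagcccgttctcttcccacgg

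The libraries held 16901190 to 23902681 counts on western diet and 16532518 to 23314954 on chow. Summed beta cell markers, 10 genes with Ins1 and Ins2 among them, lay at 242900 to 277800 CPM (counts scaled to library size, per 1000000) on western diet and 232300 to 268300 CPM on chow. Of the 10, 2 rose and 2 fell in edgeR, with a median log2 fold change of -0.11. Summed acinar markers, 20 genes of the enzyme-secreting tissue around the islets, ranged from 1015 to 7395 CPM on western diet and from 853.6 to 3579 CPM on chow, and none of the 20 was at 0 in every library. The highest acinar sum belonged to western diet cage 4 mouse 5. Of 18 acinar markers tested, 0 were called by edgeR, DESeq2 or limma-voom, and 0 had an unadjusted p under 0.05. Summed duct markers lay at 716.2 to 838.4 CPM on western diet and 883.4 to 1048 CPM on chow, without overlap, and 3 of 11 tested fell in edgeR. In the same fit 1 of 10 endothelial, 1 of 8 stellate and fibroblast and 1 of 9 immune markers tested fell. Over all genes tested, 5.27% rose and 5.5% fell in that fit. The part of these cell types in the results was not tested.

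Ribosomal protein mRNA took a slightly larger part of the islet transcriptome on western diet, in every mouse. The 84 genes held 1.587%, 1.588%, 1.612% and 1.503% of all counts in cage 4 mice 1, 2, 5 and 4 and 1.505% in the cage 2 mouse, against 1.48%, 1.403%, 1.42%, 1.47% and 1.495% in chow mice 1 to 5. The lowest western diet library was above the highest chow library, by a margin smaller than the spread within either diet. The share averaged 1.56% ± 0.0512 on western diet and 1.45% ± 0.0399 on chow (mean ± SD, n = 5 mice each), a ratio of 1.07. The ratio lay between 1.06 and 1.08 when any single mouse was left out.

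**Figure D1:**
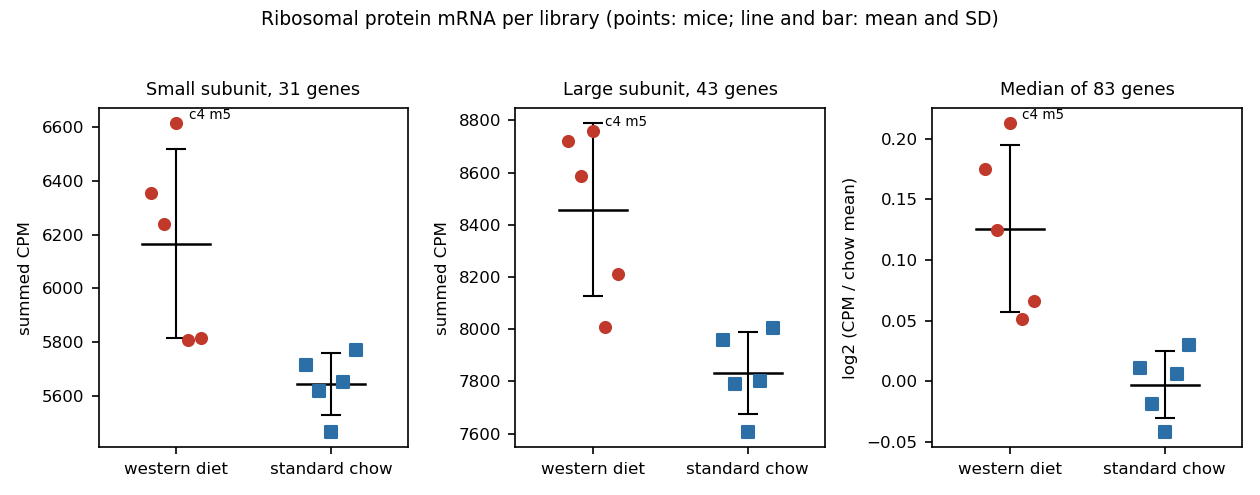
Summed CPM of the small subunit genes (left) and large subunit genes (middle), and the median over 83 genes of the log2 ratio of CPM to the chow mean (right), in each western diet mouse (circles) and each chow mouse (squares); lines and bars are means and SD, and the axes do not start at 0. In all 3 panels every western diet mouse lies above every chow mouse, with western diet cage 4 mouse 5 (c4 m5) the highest, and with values as close as 8008.2 and 8002.8 CPM for the large subunit.

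Both subunits shared this. The small subunit genes summed to 6166 ± 350 CPM on western diet and 5644 ± 116 CPM on chow, and the large subunit genes to 8457 ± 332 CPM on western diet and 7832 ± 157 CPM on chow (mean ± SD, n = 5 each, CPM scaled with TMM factors). Within each library, the small subunit sum divided by the large subunit sum was 0.729 ± 0.0167 on western diet and 0.721 ± 0.00245 on chow. That ratio was highest in western diet cage 4 mouse 5, at 0.755, and lowest in western diet cage 2 mouse 5, at 0.708, so the chow values lay within the western diet range.

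For most single genes the difference was small, and nearly all differed in 1 direction. Of the 84 genes, 83 passed the filter on low counts; the muscle paralog Rpl3l, at 0.132 CPM on western diet and 0.163 CPM on chow, did not. On western diet 14 of the 83 rose and 0 fell, by edgeR's quasi-likelihood test at a Benjamini-Hochberg adjusted p under 0.05 over 15104 genes. Among the 77 genes of the small subunit, large subunit and P stalk, 12 rose (15.6%) and 0 fell. Across all genes tested, 5.27% rose and 5.50% fell. Among tested genes that averaged 50 CPM or more, 10.8% rose, against 13 of the 75 ribosomal protein genes at that level. The 0 that fell stayed 0 with DESeq2 and limma-voom, and all 38 genes with an unadjusted p under 0.05 were higher on western diet. The median log2 fold change of western diet over chow was 0.12, a difference of 9.05%, with an interquartile range of 0.085 to 0.185. The median over all genes tested was 0.005. A fold change above 0 was found in 82 of 83 genes, against 51.0% of all genes tested; the genes were measured in the same 10 libraries and are not independent. The SE of a single gene had a median of 0.054 on the log2 scale. The count of 14 was 7 without western diet cage 4 mouse 1, 9 without mouse 2 and 9 without mouse 5 of that cage. It was 6 without chow mouse 1, 5 without chow mouse 3 and 9 without chow mouse 5. In these 6 fits between 2.47% and 4.25% of all genes tested were called higher. The median fold change stayed between 0.11 and 0.14 on the log2 scale when any mouse was left out.

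**Figure D2:**
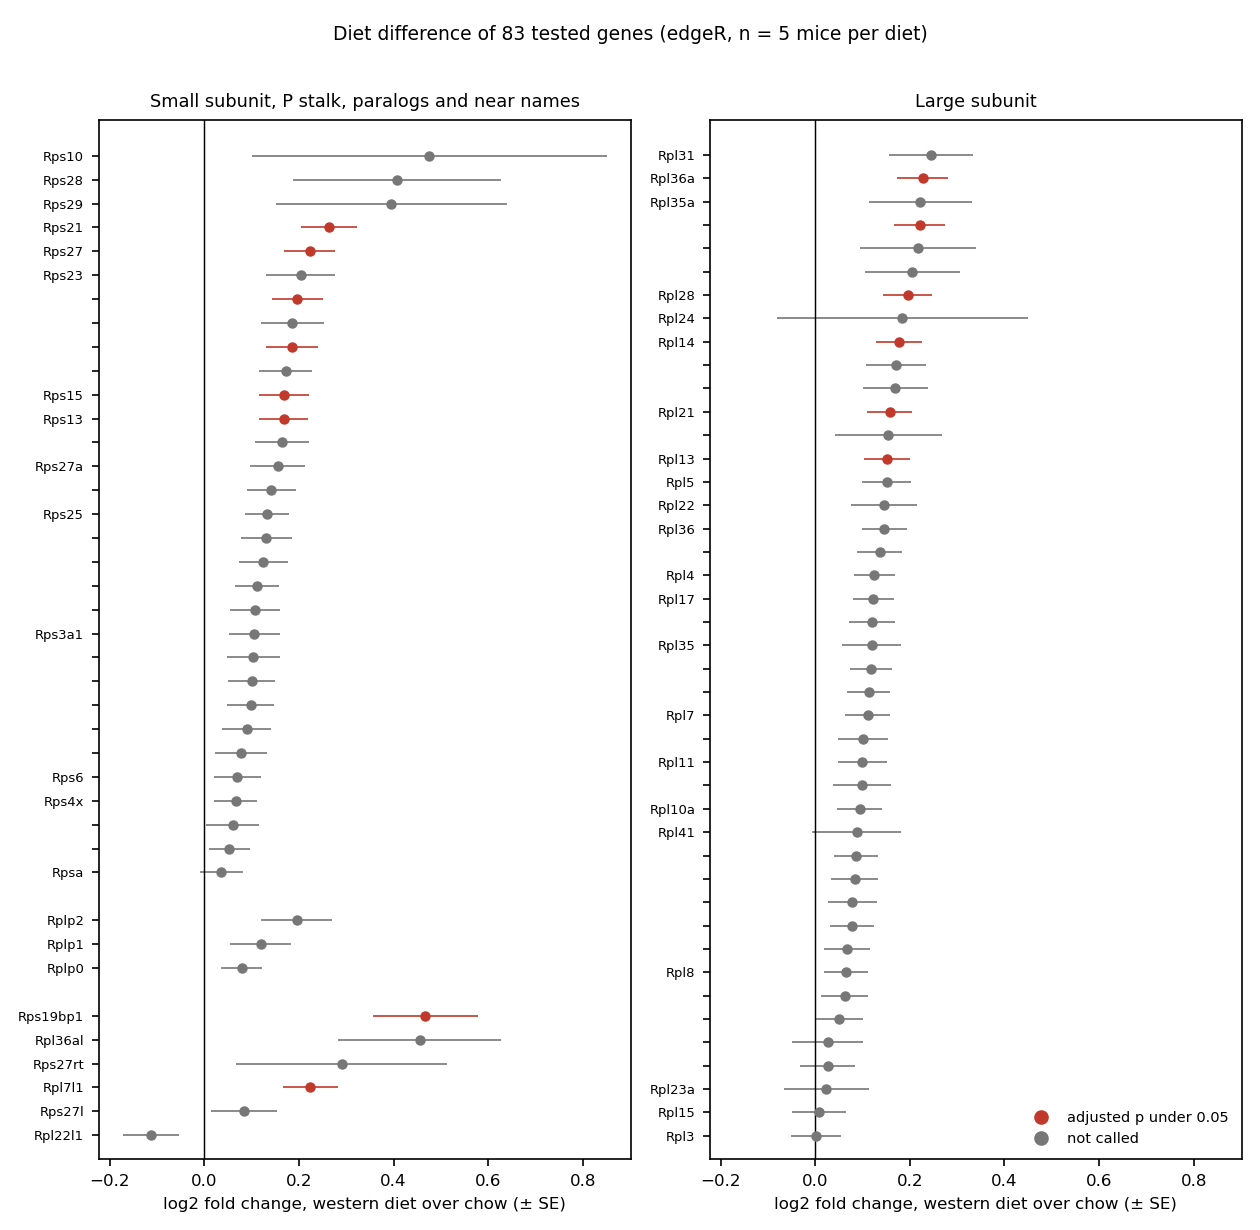
Log2 fold change of western diet over chow with its SE (horizontal axis) for the 83 tested genes, by subunit and ordered by size, with the 14 genes called by edgeR in red and the others in grey; labels are given for genes named in the text. All but Rpl22l1 lie above 0, with an interquartile range of 0.085 to 0.185, and the widest error bars belong to Rps10, Rpl24, Rps28, Rps29 and Rps27rt.

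In the authors' deposited table, 23 of these genes had an adjusted p under 0.05 and a higher value on western diet and 0 a lower one. Of the 27577 genes to which the authors' deposited table gives a p-value, 3.39% were higher at that threshold. Without any test, 14 genes had every western diet library above every chow library, against 4.44% of all genes tested, and 0 the reverse. Of these 14, 8 were also called by edgeR, and Rpl4, Rpl17, Rpl31, Rpl36 and Rps25 were among the others.

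Of the 31 small subunit genes, 6 rose (19.4%), and the median log2 fold change was 0.13. Of all genes tested 5.27% rose, and of those that averaged 50 CPM or more 10.8%. Rps21 (ENSMUSG00000039001, GRCm38 chromosome 2, 180257377 to 180258445, plus strand), a small protein of that subunit, had the smallest p of the whole group. It stood at 193.6, 185.2, 228.3, 183.1 and 186.1 CPM in western diet cage 4 mice 1, 2, 5 and 4 and cage 2 mouse 5, against 160.4, 165.2, 155.4, 159.0 and 172.9 CPM in chow mice 1 to 5. All western diet mice were above all chow mice, and cage 4 mouse 5 stood above the rest of its group. On the log2 scale it rose by 0.26 ± 0.06 (SE, edgeR adjusted p = 0.00893), and by 0.20 ± 0.05 without cage 4 mouse 5 (edgeR adjusted p = 0.021).

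Rps27 (ENSMUSG00000090733, chromosome 3, 90212522 to 90213651, minus strand) encodes a zinc-binding protein of the small subunit. Its levels were 182.8, 178.5, 193.4, 165.5 and 157.8 CPM in the western diet mice, in the order used for Rps21, against 151.9, 146.6, 145.7, 153.5 and 154.4 CPM in the chow mice. The diets did not overlap, and the lowest western diet value, in the cage 2 mouse, lay close to the chow values. The log2 fold change was 0.22 ± 0.05 (edgeR adjusted p = 0.0135). Of its 100-base windows of transcript, 98.4% also occur in other annotated transcripts, among them those of the retrogene Rps27rt, so the assignment of its reads is uncertain.

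Rps13 and Rps15, which encode further proteins of the small subunit, both rose by 0.17 on the log2 scale (edgeR adjusted p = 0.0466 and 0.0481). Leaving out 1 mouse ended the call of Rps13 in 9 of 10 cases and of Rps15 in 8.

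Among small subunit genes not called, Rps6, whose protein is phosphorylated by S6 kinase downstream of mTORC1, averaged 244 ± 13.1 CPM on western diet and 233 ± 8.56 CPM on chow (mean ± SD, n = 5 each). Rpsa, the laminin receptor homologue in the small subunit, averaged 442 ± 18.6 CPM on western diet and 431 ± 13.0 CPM on chow. These 2 genes, chosen after their values were seen, had log2 fold changes of 0.07 ± 0.05 and 0.04 ± 0.05 (SE, edgeR adjusted p = 0.381 and 0.658).

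Of the 43 large subunit genes, 6 rose (14.0%), and the median log2 fold change was 0.12. That share lay near the 10.8% of tested genes averaging 50 CPM or more, where 5.27% of all genes tested rose. Rpl36a (ENSMUSG00000079435, chromosome X, 134585654 to 134588062, plus strand) had 58.95, 62.62, 63.9, 59.76 and 63.09 CPM in the western diet mice, against 53.33, 51.9, 51.68, 48.54 and 57.72 CPM in the chow mice. The diets did not overlap, and no western diet mouse stood apart. The log2 fold change was 0.23 ± 0.05 (edgeR adjusted p = 0.0118), and 83.6% of its 100-base windows occur in other annotated transcripts.

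Rpl28 had 126.8, 127.4, 143.8, 118.4 and 126.4 CPM on western diet and 113.2, 112.0, 108.0, 113.4 and 114.9 CPM on chow. Rpl14 had 210.5, 221.8, 196.3, 192.7 and 208.3 CPM on western diet and 184.9, 176.5, 175.8, 186.3 and 187.0 CPM on chow. Neither gene overlapped between the diets. Their highest western diet library differed, cage 4 mouse 5 for Rpl28 and cage 4 mouse 2 for Rpl14. The log2 fold changes were 0.20 ± 0.05 for Rpl28 and 0.18 ± 0.05 for Rpl14 (edgeR adjusted p = 0.0219 and 0.026). Rpl21 and Rpl13 rose by 0.16 and 0.15 on the log2 scale (edgeR adjusted p = 0.0396 and 0.0484), with overlap between the diets, and lost the call in 9 and 8 of the 10 fits without 1 mouse.

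Rps21, Rps27, Rpl36a and Rps19bp1 kept an edgeR adjusted p under 0.05 in all 10 of those fits. Rpl14 lost it in 4 of 10, Rpl7l1 in 3 and Rpl28 in 2.

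Some large subunit genes had nearly equal levels. Rpl3, whose protein reaches toward the peptidyl transferase centre, averaged 307 ± 16.1 CPM on western diet and 307 ± 19.7 CPM on chow. Its log2 fold change was 0.001 ± 0.053 (edgeR adjusted p = 0.996). Rpl15 averaged 186 ± 16.9 CPM on western diet and 185 ± 5.76 CPM on chow. Rpl3 and Rpl15 were chosen after their values were seen. Without western diet cage 4 mouse 5, in which Rpl15 was lowest at 161.0 CPM, its log2 fold change was 0.06 ± 0.05 (edgeR adjusted p = 0.547). Rpl5 and Rpl11, also chosen after their values were seen and whose proteins bind the 5S rRNA and the p53 regulator MDM2, had log2 fold changes of 0.15 ± 0.05 and 0.10 ± 0.05 (SE, edgeR adjusted p = 0.0674 and 0.23).

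The P stalk recruits elongation factors to the large subunit. Of its 3 genes, 0 were called by edgeR, DESeq2 or limma-voom, and 1 had an unadjusted p under 0.05. Rplp0, the stalk base, averaged 511 ± 18.4 CPM on western diet and 484 ± 14.9 CPM on chow (mean ± SD, n = 5 each). Rplp1 averaged 292 ± 22.7 CPM on western diet and 269 ± 23.4 CPM on chow. Rplp2 averaged 128 ± 16.7 CPM on western diet and 112 ± 6.70 CPM on chow. The 3 genes were higher on western diet on average, each with overlap between the diets, with log2 fold changes of 0.08, 0.12 and 0.20.

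The 6 tested paralogs and near names had log2 fold changes between -0.11 and 0.47. Of these 2 rose (33.3%), where 5.27% of all genes tested rose. Rps19bp1 (ENSMUSG00000051518, chromosome 15, 80260615 to 80264315, minus strand), known in human cells as AROS, a regulator of the deacetylase SIRT1, had 13.39, 13.31, 11.4, 10.58 and 10.13 CPM in the western diet mice, against 7.129, 8.182, 8.804, 9.242 and 9.147 CPM in the chow mice. The diets did not overlap, and cage 4 mice 1 and 2 were the highest. It had the largest fold change of the called genes, 0.47 ± 0.11 on the log2 scale (SE, edgeR adjusted p = 0.0122).

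Rpl7l1 (ENSMUSG00000063888, chromosome 17, 46773907 to 46782672, minus strand), a paralog of Rpl7 whose yeast counterpart acts in assembly of the large subunit, had 56.79, 58.86, 58.14, 59.55 and 52.04 CPM on western diet and 45.26, 51.8, 45.39, 49.73 and 51.92 CPM on chow. The diets did not overlap, but the cage 2 western diet mouse and chow mice 2 and 5 were nearly level. The log2 fold change was 0.22 ± 0.06 (edgeR adjusted p = 0.0197).

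Rpl22l1, a paralog of Rpl22, was the only tested gene of the group below 0. It had 36.64, 37.88, 34.92, 35.65 and 35.92 CPM on western diet and 40.13, 37.28, 43.5, 38.76 and 36.33 CPM on chow, with overlap; its log2 fold change was -0.11 ± 0.06 (edgeR adjusted p = 0.224). Rps27l, a paralog of Rps27 that p53 induces, averaged 37.6 ± 3.03 CPM on western diet and 35.4 ± 3.09 CPM on chow. Rpl36al averaged 4.89 ± 0.875 CPM on western diet and 3.57 ± 0.656 CPM on chow, and Rps27rt 2.70 ± 0.768 CPM on western diet and 2.20 ± 0.316 CPM on chow. The diets overlapped for these 3 genes and none was called (edgeR adjusted p = 0.469, 0.0952 and 0.429).

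Levels between genes were compared per kilobase (kb) of the deposited gene length, which for 80 of 84 genes equals all annotated exon bases. Over the 10 libraries the highest mean levels were 562.3 CPM per kb for Rplp1, 392.8 for Rps3a1, 323.2 for Rpl41, 316.1 for Rpl4 and 315.6 for Rpl17, followed by Rplp0. The place of Rpl17 rests on its deposited length of 775 bases, since its annotated exons total 1327 bases. Rpl41 encodes the smallest ribosomal protein, and Rps3a1 and Rpl4 encode large proteins of the small and large subunit. On this scale none of the first 6 was called in edgeR, with log2 fold changes of 0.12 for Rplp1, 0.11 for Rps3a1, 0.09 for Rpl41, 0.12 for Rpl4, 0.12 for Rpl17 and 0.08 for Rplp0. Per kb of the principal GENCODE transcript, the order differed: Rpl41 came first with 863.8 CPM per kb, and Rps27 with 472.5 and Rps21 with 454.1, both called higher, were among the first 6.

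The lowest tested levels were 0.393 CPM per kb for Rps10, 1.43 for Rpl24 and 3.13 for Rpl36al. Rps10 and Rpl24 encode core proteins, and Rps10 had 12, 12, 19, 27 and 35 counts in the western diet libraries and 6, 15, 12, 13 and 30 in the chow libraries. Of the exon bases of Rps10, 20.6% lie under exons of the annotated read-through gene RPS10-NUDT3 on the same strand. For Rpl24 and Rpl36al these shares were 47.0%, under Gm28037, and 24.5%, under Gm49383. More of the principal transcript was shared. Of its 100-base windows, 89.5% for Rps10, 66.8% for Rpl24 and 54.8% for Rpl36al also occur in transcripts of the overlapping gene named. Whether such overlap sets the counts was not tested. On the opposite strand, exons of another gene covered over 15% of the exon bases of 7 genes, with Rpl35 (66.2%, Wdr38) and Rpl23a (59.7%, Tlcd1) highest. At least 50% of the 100-base windows were shared with other annotated transcripts in 38 of the 84 genes. Of the called genes these were Rps27, Rpl36a, Rpl13 and Rps13, whose read assignment is therefore uncertain.

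**Figure D3:**
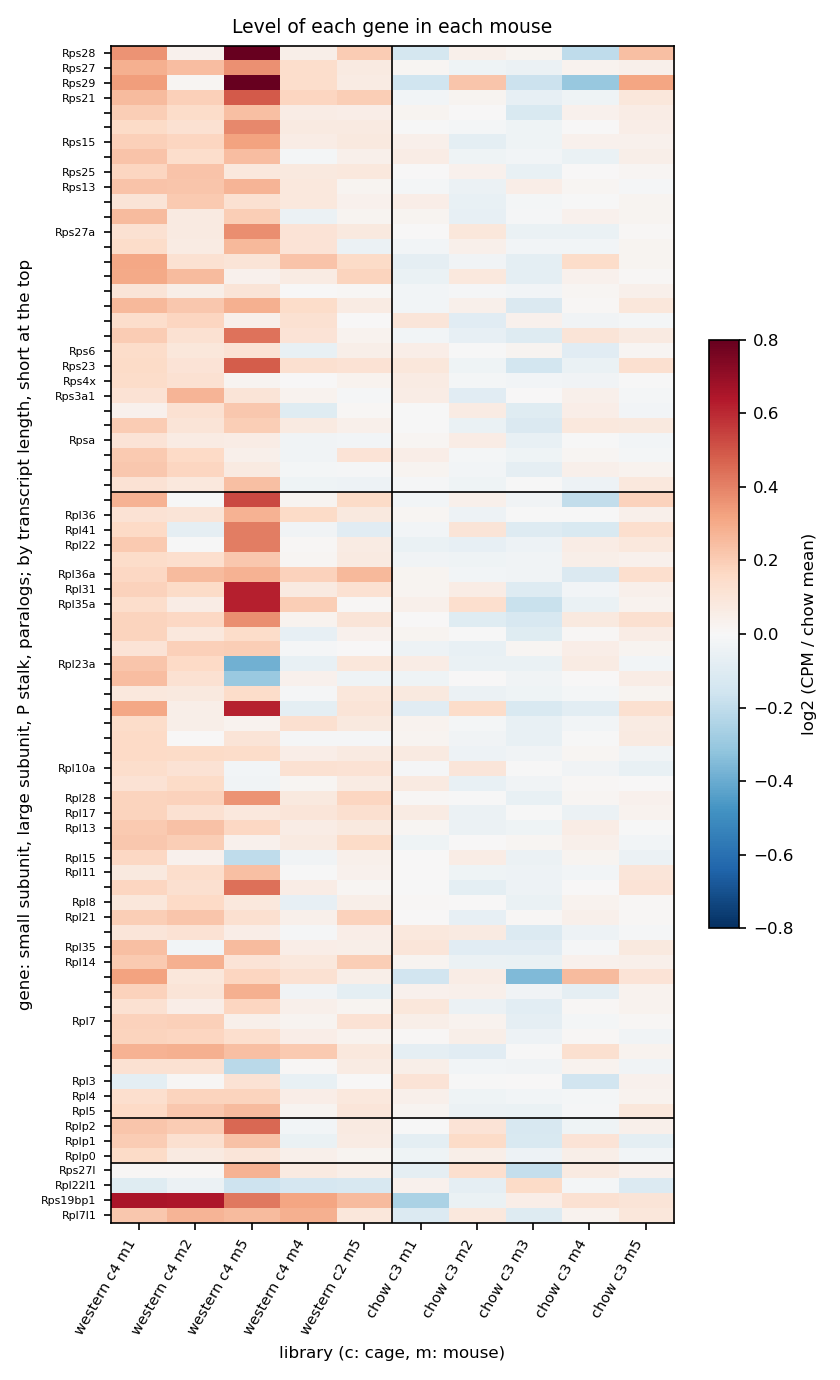
Log2 ratio of CPM to the chow mean (colour, red higher, drawn up to 0.8 in either direction) for the 79 tested genes with a chow mean of at least 5 CPM, in the 5 western diet libraries (left) and the 5 chow libraries (right), ordered within each group by transcript length, with labels for genes named in the text. Red runs down the columns of western diet cage 4 mice 1, 2 and 5 and is paler in cage 4 mouse 4 and cage 2 mouse 5, and the darkest cells are Rps28 and Rps29 in cage 4 mouse 5.

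The increase was uneven among the western diet mice. The median over 83 genes of the log2 ratio of CPM to the chow mean was 0.18, 0.12, 0.21, 0.05 and 0.07 in the western diet mice, in the order used for Rps21, and 0.01, -0.02, -0.04, 0.01 and 0.03 in chow mice 1 to 5. Cage 4 mice 1, 2 and 5 were high, and cage 4 mouse 4 and the cage 2 mouse lay near chow. Western diet cage 4 mouse 5 was the highest of the 10 libraries for 42 of the 83 genes (50.6%), against 11.7% of all genes tested. Chow mouse 3 was the lowest library for 36 of the 83 (43.4%), against 9.08% of all genes tested. The acinar sums in the western diet mice, in the order used for Rps21, were 1015, 1765, 7395, 4621 and 1213 CPM. With the acinar marker mean as a covariate, 16 of 83 genes were called higher by edgeR and 0 lower. In that fit 6.12% of all genes tested were called higher, against 5.27% in the main fit. The part of acinar tissue in ribosomal protein mRNA was not tested.

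Western diet cage 4 mouse 5 also differed from its group by transcript length. Against the median of the other 4 western diet mice, its log2 ratio had a median of 0.44 for 7 genes with a principal transcript under 400 bases, 0.27 for 12 genes of 400 to under 500 bases, 0.07 for 31 genes of 500 to under 800 bases and 0.04 for 33 longer genes. Over all genes tested this median was 0.005, and over 31 other genes of at least 50 CPM with a gene length of 500 to under 1000 bases it was 0.12. Over the 3 other genes of at least 50 CPM under 500 bases it was -0.69, with values between -1.19 and 0.061. These other genes were classed by gene length and the ribosomal protein genes by principal transcript, so the classes do not match. A log2 ratio above 0.5 was found in 6 of the 31 other genes (19.4%) and 0 of the 3. It was found in 5 of 83 ribosomal protein genes (6.02%) and 3.05% of all genes tested. The largest ratio among the 31 other genes was 2.586. Acinar genes were not left out of the other genes, and the acinar sum was highest in this mouse. The acinar marker Clps stood at 299.0 CPM in this mouse and at 34.01 to 167.0 CPM in the other western diet mice. The part of acinar genes in these ratios was not tested.

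**Figure D4:**
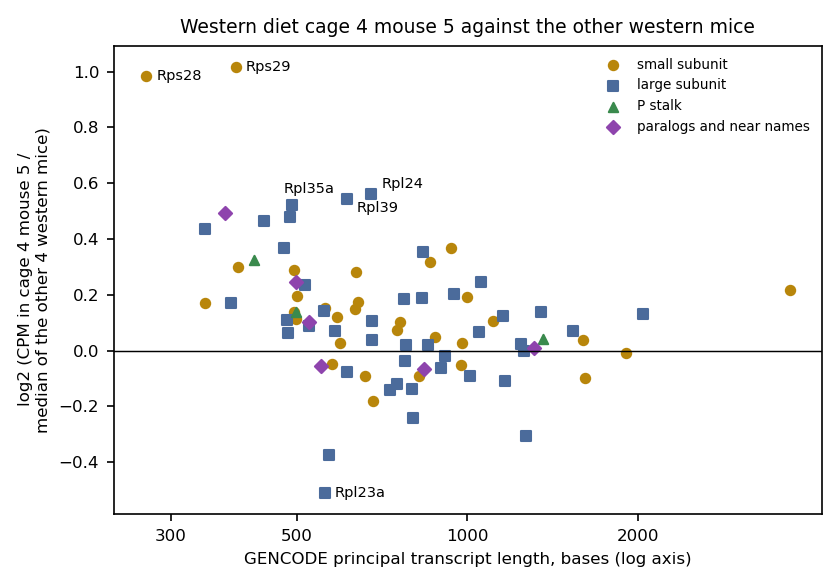
Log2 ratio of CPM in western diet cage 4 mouse 5 to the median of the other 4 western diet mice (vertical axis) against principal transcript length on a log axis, 1 point per tested gene, with symbols for subunit. Rps28 and Rps29 lie near 1, genes over 800 bases lie between -0.31 and 0.37, and Rpl23a is lowest at -0.51.

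Rps28 and Rps29, which encode very small proteins of the small subunit and were chosen here after their values were seen, show the size of this. Rps29 had 109.8, 88.1, 189.0, 95.84 and 90.93 CPM on western diet and 77.89, 101.3, 77.18, 70.54 and 108.2 CPM on chow. Rps28 had 69.94, 55.68, 117.5, 56.11 and 62.71 CPM on western diet and 49.27, 55.97, 55.22, 47.34 and 64.28 CPM on chow. In both genes cage 4 mouse 5 lay far above all other mice, and the remaining western diet mice overlapped with chow. The log2 fold changes of 0.40 ± 0.24 for Rps29 and 0.41 ± 0.22 for Rps28 (SE, edgeR adjusted p = 0.346 and 0.282) became 0.14 ± 0.14 and 0.17 ± 0.09 without that mouse (edgeR adjusted p = 0.574 and 0.28). Without it 9 genes of the group were called higher, 8 of them among the 14, where 3.1% of all genes tested were called higher.

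In each gene length class the median of the ribosomal protein genes was above that of the other genes. The median log2 fold change was 0.17 for 13 ribosomal protein genes under 1000 bases of gene length and 0.013 for 808 other genes. It was 0.15 for 35 ribosomal protein genes of 1000 to under 2000 bases and 0.04 for 1845 other genes. From 2000 to under 4000 bases it was 0.12 for 29 ribosomal protein genes and 0.03 for 4556 other genes, and from 4000 bases 0.10 for 6 ribosomal protein genes and -0.02 for 7812 other genes. With each library's trend over gene length removed, 9 of the 83 genes, Rps19bp1 and Rpl7l1 among them, were called higher by edgeR and 0 lower. The median over all 83 was 0.10. In that fit 4.83% of all genes tested were called higher.

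The 14 genes with a tract at any annotated start, Rps10 and Rps27rt with their low counts among them, had a median log2 fold change of 0.20 with 4 called. The 49 tested genes with the tract at none of their annotated starts had a median of 0.11 with 6 called. Of all genes tested 5.27% were called higher, and of those that averaged 50 CPM or more 10.8%. The difference between genes with and without the tract was not tested.

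Some genes of ribosome assembly, a list chosen with earlier results of these data known, rose as well. Of 50 on that list, 15 rose and 0 fell in edgeR, with a median log2 fold change of 0.16, where 5.27% of all genes tested rose. DESeq2 called 15 of them higher and limma-voom 9, neither called one lower, and 1 gene lower on western diet had an unadjusted p under 0.05. Nolc1, a nucleolar chaperone of small nucleolar ribonucleoproteins, had 58.43, 64.89, 65.3, 70.12 and 55.6 CPM on western diet and 44.94, 51.85, 46.93, 48.72 and 50.39 CPM on chow. Gnl3, which encodes nucleostemin, a nucleolar GTP-binding protein, had 44.86, 40.61, 53.9, 54.88 and 49.07 CPM on western diet and 33.53, 33.99, 38.53, 33.87 and 38.37 CPM on chow. Neither overlapped between the diets, and for both the highest library was cage 4 mouse 4, which was among the lowest western diet mice in ribosomal protein mRNA. The log2 fold changes were 0.37 ± 0.06 for Nolc1 and 0.45 ± 0.08 for Gnl3 (SE, edgeR adjusted p = 0.00181 and 0.00195). Heatr1, whose yeast counterpart acts in the small subunit processome, rose by 0.36 and Nop56, a core protein of box C/D small nucleolar particles, by 0.29 on the log2 scale (edgeR adjusted p = 0.00473 and 0.00554).

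**Figure D5:**
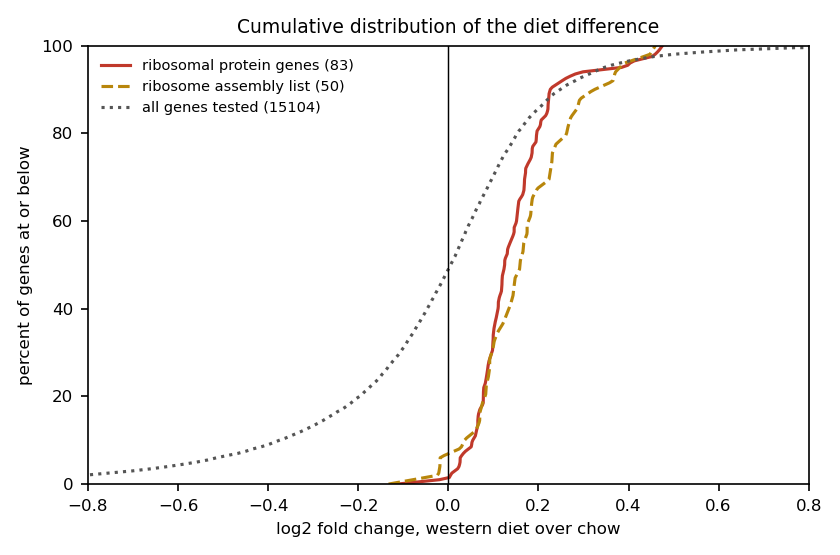
Percent of genes (vertical axis) at or below each log2 fold change of western diet over chow (horizontal axis, drawn from -0.8 to 0.8) for the 83 ribosomal protein genes (solid), the 50 genes of the ribosome assembly list (dashed) and all 15104 genes tested (dotted). The solid curve lies to the right of the dotted one up to 87.5% of genes and the dashed curve up to 96.5%, with medians of 0.12, 0.16 and 0.005.

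RNA polymerases I and III make the ribosomal and transfer RNAs. Of 29 of their genes, 4 rose (13.8%) and 0 fell in edgeR, where 5.27% of all genes tested rose and 5.5% fell. The median log2 fold change of the 29 was 0.01. DESeq2 called 6 higher and limma-voom 3, and neither called one lower. Polr1b and Polr1a, the catalytic core subunits of polymerase I, rose by 0.47 and 0.23 on the log2 scale, and its associated subunit gene Cd3eap by 0.42. Polr3d, a polymerase III subunit gene, rose by 0.25 (edgeR adjusted p = 0.00363, 0.0477, 0.0135 and 0.00762, in the order named). Among 9 genes of this list with an unadjusted p under 0.05, all were higher on western diet.

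Other mRNAs with TOP tracts showed a smaller median. Of 21 such genes, 1 rose (4.76%) and 0 fell in edgeR, where 5.27% of all genes tested rose and 5.5% fell. The median log2 fold change of the 21 was 0.06. No gene of this list with an unadjusted p under 0.05 was lower in edgeR, DESeq2 or limma-voom. The gene that rose was Eef1d, a nucleotide exchange subunit of elongation factor 1, at 70.8 ± 3.60 CPM on western diet and 59.8 ± 3.24 CPM on chow (mean ± SD, n = 5 each, edgeR adjusted p = 0.00775). Of the 3 genes of ribosomal proteins outside the name rule, Fau and Rack1 had log2 fold changes of 0.12 and 0.06. Of the 3, 0 were called by edgeR, DESeq2 or limma-voom and 0 had an unadjusted p under 0.05.

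Of 22 genes of mTORC1 and TOP mRNA control, 2 rose and 1 fell in edgeR, where 5.27% and 5.50% of all genes tested did. DESeq2 called 2 higher and 2 lower. Akt1s1, which encodes the mTORC1 substrate and inhibitor PRAS40, averaged 57.1 ± 2.58 CPM on western diet and 50.4 ± 2.09 CPM on chow. Rheb, the GTPase that activates mTORC1, averaged 93.3 ± 3.00 CPM on western diet and 83.3 ± 4.90 CPM on chow. Deptor, an inhibitor bound to mTOR, averaged 152 ± 4.94 CPM on western diet and 182 ± 8.97 CPM on chow (mean ± SD, n = 5 each, edgeR adjusted p = 0.0324, 0.0437 and 0.00241). Larp1, with a log2 fold change of 0.10 ± 0.05 and chosen after its value was seen, was not called (edgeR adjusted p = 0.208).

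Free ribosomal proteins can raise p53, and of 10 genes that read out this stress 1 rose and 1 fell in edgeR, where 5.27% and 5.50% of all genes tested did. Cdkn1a, the p53 target that encodes the cell cycle inhibitor p21, averaged 65.3 ± 15.7 CPM on western diet and 41.0 ± 4.26 CPM on chow. The 4 western diet mice of cage 4 had 62.93 to 79.84 CPM, above all chow mice, while the cage 2 western diet mouse, at 39.86 CPM, lay within the chow range of 36.93 to 48.0 CPM. Bbc3, the p53 target that encodes PUMA, averaged 25.5 ± 4.25 CPM on western diet and 32.9 ± 3.39 CPM on chow (mean ± SD, n = 5 each, edgeR adjusted p = 0.0452 and 0.0422). Of 14 genes of ribosome rescue and quality control, 1 rose (7.14%, against 5.27% of all genes tested) and 0 fell in edgeR. None of the 14 with an unadjusted p under 0.05 was lower in edgeR, DESeq2 or limma-voom. The gene that rose was G3bp1, which encodes a stress granule protein, with a fold change of 0.13 ± 0.04 on the log2 scale (edgeR adjusted p = 0.0499).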

How the data were processed

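Whole-number read counts per gene were deposited by the authors, not normalized, with their own log2 fold changes and p-values for western diet over chow, per the file headers. Gene lengths in bases stand in the same deposited table. The submitters' processing notes list STAR 2.5, HTSeq 2, DESeq2 and the builds GRCm38 and mm10, and the labels' protocols the NEBNext Ultra RNA kit. A strand setting for counting was not given in those sources, so a gene and an overlapping gene cannot be told apart. The table's 20 columns of normalized values and FPKM were not used.

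From the counts, edgeR 4.0.16 (R 4.3.3) kept 15104 genes with filterByExpr (minimum count 10), scaled with TMM and fitted a robust quasi-likelihood model, no covariate, adjusted p under 0.05 by Benjamini-Hochberg over all genes. An SE is the log2 fold change over the root of F. limma 3.58.1 (voom) and DESeq2 1.42.0 were alternatives. The script was tested on simulated counts of independent genes, with changes larger than the median change found here. Total counts of 16532518 to 23902681 per library set the depth; the spread includes counting error. Transcripts, exon overlaps and windows are from GENCODE M21 and promoters from RefSeq GRCm38.p6. Deposited coordinates equalled GENCODE's for 82 of 84 genes.

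The members and gene lists were chosen with earlier results of these data known. Genes named were all called members, the 10 smallest p-values, the 6 highest and 3 lowest tested levels per kb, the P stalk genes, the tested paralogs and up to 4 called genes of each other list; others are marked. Some genes that this takes are not reported here and stayed in every fit, count and figure. p-values measure the spread between libraries of 1 mouse each, with no cage shared between diets.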

Additional observations from a re-analysis of the deposited data

Results flagged for a closer look

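In each diet, the highest and lowest library of every tested ribosomal protein gene, of the summed CPM of the group and of the summed "-ps" named copies were compared with the other 4. Of 170 such groups 13 held a library far from the rest. For a single group chance gives about 1 in 20, and the 170 groups share 10 libraries and are not independent. Of the 12 groups that are single genes, 9 had western diet cage 4 mouse 5 highest and 1 had it lowest.

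In western diet cage 4 mouse 5, Rps28 stood at 117.5 CPM (others 55.68 to 69.94 CPM), Rps29 at 189.0 CPM (88.1 to 109.8), Rpl31 at 230.0 CPM (157.5 to 170.1) and Rpl35a at 177.6 CPM (116.3 to 132.5). Rps23 was at 261.7 CPM (201.4 to 207.8), Rps27a, a ubiquitin fusion, at 250.9 CPM (203.4 to 210.9) and Rps21 at 228.3 CPM (183.1 to 193.6). Rps27l was at 42.86 CPM (35.6 to 37.1). Rpl10a was the gene with this mouse lowest, at 124.2 CPM (136.7 to 139.2). The summed "-ps" named copies, 153 rows of the table, were at 83.67 CPM in the same library and at 47.63 to 55.33 CPM in the other western diet mice. Without this mouse the log2 fold changes of Rpl31, Rpl35a and Rps23 were 0.14, 0.10 and 0.13, against 0.24, 0.22 and 0.20 with it.

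On chow, mouse 3 was low in Rpl8, at 308.1 CPM (320.1 to 324.7), and mouse 1 was high in Rps4x, at 241.7 CPM (226.8 to 230.1).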

How the results depend on the processing

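The count of 14 genes called higher was 11 with RLE factors, 9 with upper quartile factors, 14 with TMM factors made without these genes, 12 without a filter, 10 with a filter at 5 CPM, 12 with limma-voom, 11 without robust moderation, 11 with protein-coding genes alone, 16 with the acinar covariate and 9 with the gene length trend removed. In these fits between 2.72% (without a filter) and 6.62% (filter at 5 CPM) of all genes were called higher. DESeq2 called 23, where 6.31% of all genes were called higher. Leaving out 1 mouse gave 5 to 17, where 2.47% to 6.01% of all genes were called higher. No alternative called a member lower, and the median log2 fold change lay between 0.10 and 0.14. The causes of these moves were not tested. The log2 fold change of Rpl41 was -0.004 (edgeR adjusted p = 0.979) without western diet cage 4 mouse 5, and at most 0.131 without any other mouse. With mouse number as a replicate block the count was 1 (Rps19bp1, edgeR adjusted p = 0.0492), where 342 genes in all rose (2.26%), and the median was 0.11. The numbers do not pair the mice: same-numbered mice had correlations of deviations of -0.058, 0.009, -0.002, 0.079 and -0.124, and 2 western diet mice carry number 5. With 5 mice a diet and a median SE of 0.054, log2 differences near 0.12 lay close to the limit of what was called. Genes sharing most windows with copies, and those under 5 CPM, are the least certain.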
